A study of Mus musculus with 1 sample.

Results

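The 6 genes Mecom, Prdm16, Hlf, Nkx2-3, Mllt3 and Erg encode nuclear regulators of blood stem cells, and they were taken by symbol from the 32285 genes of a single-cell RNA count matrix, in which all 6 had counts. The matrix came from 1 library of sorted Lineage- cKit+ bone marrow cells, the fraction of femur and tibia marrow that holds blood stem and progenitor cells. The mice were C57BL/6 with both alleles of Brd9 floxed (Brd9fl/fl) and no Cre, and they served as the controls for Brd9 deletion, which was not analysed here. They had received pIpC, an inducer of interferon, at 20 mg/kg in 3 doses given every other day, and cells were prepared 8 weeks later. The labels name a CD45.2(+) donor and a CD45.1(+) CD45.2(-) recipient whereas the methods speak of primary mice, so whether these cells had passed through a transplant was not settled, and the number of mice pooled was not stated. With 1 library there was no replicate: no test was made, cells are not replicates, and each interval below is an exact 95% interval that covers counting error only.

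Blood stem cells renew themselves in the marrow and feed the megakaryocyte, erythroid, myeloid and lymphoid lineages through multipotent progenitors, and a small set of transcription regulators is known for high expression in the stem cells and loss on commitment. Mecom encodes EVI1, a zinc finger factor of the PRDM family needed to keep stem cells, and Prdm16 encodes its close relative. Hlf encodes a PAR bZIP factor that marks stem cells, Nkx2-3 a homeobox factor, and Erg an ETS factor that works in both blood stem cells and endothelium. Mllt3 encodes AF9, a YEATS domain protein that reads modified histones and is found with DOT1L and with the transcription elongation machinery.

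The annotation of the mouse genome (GENCODE M21, GRCm38) places Mecom at chr3:29951296-30548008, Prdm16 at chr4:154316125-154636873, Hlf at chr11:90336536-90390895, Mllt3 at chr4:87769925-88033364 and Erg at chr16:95359169-95586593, all on the minus strand, and Nkx2-3 at chr19:43612325-43615892 on the plus strand. All 6 are protein-coding. Mecom holds 5 further same-strand gene models, none of which was counted, and the antisense gene Mecomos had 55 UMIs (unique molecular identifiers, each 1 tagged transcript) against 2313 of Mecom. Hlf, Nkx2-3, Mllt3 and Erg overlap no other annotated gene.

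RefSeq (GRCm38.p6) gives 10 promoter windows for the 6 genes, each 250 bases before to 50 bases after a start, and 5 of them are shown, 1 for each gene except Mecom, so that the letters near the starts can be compared between genes. Capitals mark matches on either strand to the CCAAT box, to the Sp1 core GGGCGG, to the NKX letters CACTTNA, to the E-box CAGCTG, to the GATA letters AGATAA or to the ETS core AGGAAG, and no motif holds another. The sequences read 5′ to 3′ on the gene's strand and lie at chr11:90390868-90391167 (Hlf), chr4:154636824-154637123 (Prdm16), chr19:43612075-43612374 (Nkx2-3), chr4:88033358-88033657 (Mllt3) and chr16:95459299-95459598 (Erg).
Hlf: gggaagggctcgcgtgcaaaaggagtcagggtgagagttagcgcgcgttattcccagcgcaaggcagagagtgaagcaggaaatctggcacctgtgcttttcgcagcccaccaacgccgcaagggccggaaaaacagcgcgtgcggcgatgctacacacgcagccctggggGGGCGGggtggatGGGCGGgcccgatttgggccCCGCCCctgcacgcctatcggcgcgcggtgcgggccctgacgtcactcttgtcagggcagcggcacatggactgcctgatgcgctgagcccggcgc
Prdm16: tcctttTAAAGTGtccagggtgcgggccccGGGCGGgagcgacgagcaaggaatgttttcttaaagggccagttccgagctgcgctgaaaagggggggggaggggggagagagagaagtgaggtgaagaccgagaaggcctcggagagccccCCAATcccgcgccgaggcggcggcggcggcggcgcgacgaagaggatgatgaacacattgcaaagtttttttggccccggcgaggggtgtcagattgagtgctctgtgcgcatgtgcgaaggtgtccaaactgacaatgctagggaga
Nkx2-3: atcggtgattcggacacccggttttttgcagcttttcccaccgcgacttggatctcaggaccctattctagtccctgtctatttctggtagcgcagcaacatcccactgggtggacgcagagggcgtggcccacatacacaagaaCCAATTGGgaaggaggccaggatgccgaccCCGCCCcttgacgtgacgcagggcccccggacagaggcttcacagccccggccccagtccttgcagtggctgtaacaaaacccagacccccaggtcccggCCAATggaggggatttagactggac
Mllt3: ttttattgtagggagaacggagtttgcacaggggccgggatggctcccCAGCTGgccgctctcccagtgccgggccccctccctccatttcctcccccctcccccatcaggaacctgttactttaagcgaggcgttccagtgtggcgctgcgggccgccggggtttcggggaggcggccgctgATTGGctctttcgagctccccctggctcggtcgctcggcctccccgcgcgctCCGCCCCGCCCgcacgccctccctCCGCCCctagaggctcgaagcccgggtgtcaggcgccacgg
Erg: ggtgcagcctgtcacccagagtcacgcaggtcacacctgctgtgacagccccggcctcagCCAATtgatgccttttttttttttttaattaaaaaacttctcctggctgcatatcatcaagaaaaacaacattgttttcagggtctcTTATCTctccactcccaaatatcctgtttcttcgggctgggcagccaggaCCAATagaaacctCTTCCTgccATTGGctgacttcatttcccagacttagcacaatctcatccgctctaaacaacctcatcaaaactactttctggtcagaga
The GC content was 67.3% for the Hlf window, 61.0% for Prdm16, 60.0% for Nkx2-3, 70.3% for Mllt3 and 46.0% for this Erg start, against a median of 52.7% over 32851 promoter windows. CCAAT occurred in 37.4% of all windows and the Sp1 core in 35.7%. Of all windows, 11.2% held the GATA letters and 35.4% the ETS core, and of the 10 windows of the 6 genes this Erg start alone held either. The NKX letters occurred in 11.5% of all windows and the E-box in 16.3%. The letters TTANGTAA, bound by PAR bZIP factors such as the Hlf product (2.32% of all windows), CCGGAAG (8.86%) and the RUNX letters TGTGGT (16.8%) were in none of the 10. These matches describe letters in the windows, and the counts, which come from transcript ends, do not tell which start was used.

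After the study's cell filter, 7645 of 8817 barcodes were kept, with 1592 to 49991 UMIs each (median 18696) and 151852381 in all. Since no member was to define the stem cells, they were gated with Procr, the endothelial protein C receptor gene and a surface marker of stem cells. The Procr gate took cells with at least 1 Procr UMI and no lineage gate, and held 567 of the 706 kept cells with a Procr UMI (7.42% of kept cells, median 8449 UMIs). All 8 other stem cell markers, such as Fgd5, Slamf1, Esam and Hoxb5, were present there, at 483 CPM in sum (UMIs per 1000000 UMIs of the class) against 62.1 CPM over all kept cells. Of the remaining cells without a lineage gate, 211 had a Flt3 UMI (Flt3 gate, a receptor of multipotent and lymphoid progenitors), 266 a Gata1 UMI (Gata1 gate), and 617 neither (ungated). The lineage gates, set on summed marker UMIs per 10000, gave 459 megakaryocyte-like, 1232 erythroid-like, 867 granule gene-positive, 413 neutrophil-like, 1907 monocyte-like, 196 dendritic-like, 311 basophil or mast-like and 131 lymphoid-like cells, 54 cells in 3 classes of 30 or fewer, and 414 mixed cells with markers of 2 lineages or more, of which 28.3% were doublet calls. The Flt3 and Gata1 gates rest on 1 marker each and so carry no cell type name. Megakaryocyte-like cells had the second highest sum of those stem markers among the named lineage classes and gates, at 289 CPM.

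Erg, Mecom and Prdm16 are also known in endothelium, so the 7 endothelial markers were read beside them. Their sum ranged from 0 to 139 CPM over the classes and was highest in the Procr gate. The defining markers Cdh5 and Sox17 had 0 UMIs in the Procr gate, where 3 UMIs would be 0.538 CPM, and 4 and 0 UMIs over all kept cells. Tie1, which stem cells also express, gave 300 of the 776 UMIs of the list in the Procr gate. The rest came from Kdr, Emcn, Plvap and Cldn5, and 4 of the 7 markers had 3 or more UMIs there. The source of these UMIs was not tested. Of the 5 stromal markers, 4 were at 0 in the Procr gate and the other was Col1a2.

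All 6 genes were highest in the Procr gate, and the plot of levels by class shows the same leading row in each panel. Levels are compared within a gene only. Relative to all other kept cells, all 6 were 2-fold or more higher, where 24.4% of the 13479 genes with at least 50 UMIs were. The 6 ratios ran from 5.35 to 23.2 with a median of 13.9, and the median over all those genes was 1.21.

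**Figure D1:**
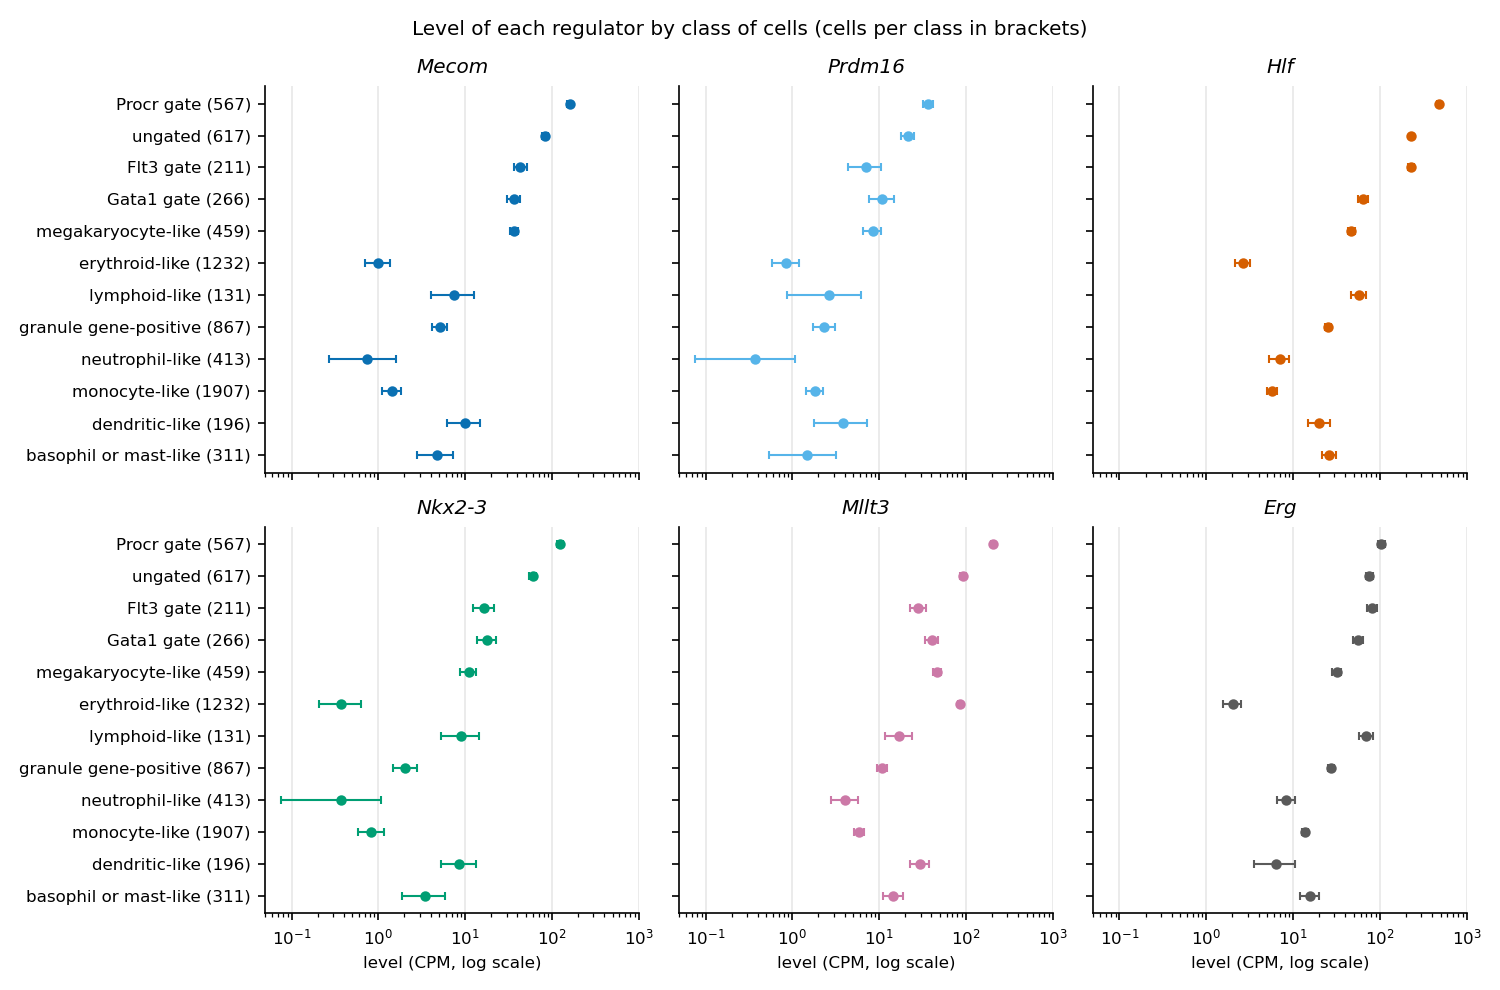
Level of each gene in the 12 classes with at least 100 cells, mixed cells left out, in UMIs per 1000000 UMIs of the class on a log axis; points are the class value, bars the exact 95% Poisson interval, and brackets give cells per class. All 6 panels peak in the Procr gate, Mllt3 has another high value in erythroid-like cells (84.5 CPM), and Erg stays high in the Flt3 gate (81.7 CPM) and lymphoid-like cells (69.6 CPM).

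Nkx2-3 had the largest difference. It stood at 123 CPM in the Procr gate (interval 114 to 132, 685 UMIs) and 5.29 CPM in all other kept cells, a ratio of 23.2 (20.9 to 25.8), and the Procr gate, with 7.42% of the cells, carried 47.0% of its UMIs. Against lineage-gated cells alone the ratio was 65.3 (56.2 to 76.1). Counted per cell against all other kept cells, it was 11.0. Its levels in the Gata1 gate (17.8 CPM) and Flt3 gate (16.6 CPM) did not differ beyond their intervals, megakaryocyte-like cells were at 11.0 CPM, and neutrophil-like and erythroid-like cells were at 0.368 and 0.374 CPM.

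Mecom and Prdm16 are the related zinc finger genes. Mecom was at 160 CPM in the Procr gate (150 to 171, 893 UMIs), 16.5 times its level elsewhere (15.2 to 17.9). Prdm16, the member with the fewest counts at 679 UMIs over all kept cells, was at 36.6 CPM (31.7 to 42.0), 11.3 times its level elsewhere (9.51 to 13.3). The next named classes for Mecom were the Flt3 gate (43.1 CPM), megakaryocyte-like cells (36.8 CPM) and the Gata1 gate (36.1 CPM), and no neighbouring pair of these 3 differed beyond its interval. For Prdm16 the Gata1 gate (10.7 CPM), megakaryocyte-like cells (8.40 CPM) and the Flt3 gate (7.02 CPM) likewise overlapped in their intervals. Mecom was at 0.990 CPM in erythroid-like cells, 1.43 CPM in monocyte-like cells and 0.735 CPM in neutrophil-like cells, the last from 6 UMIs.

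Hlf, the PAR bZIP gene, had 2659 UMIs in the Procr gate and a level of 477 CPM there (459 to 495), 16.6 times all other kept cells (15.8 to 17.5). The Flt3 gate and the ungated cells, at 229 and 231 CPM, shared the next place. Hlf was then at 64.8 CPM in the Gata1 gate, 57.4 CPM in lymphoid-like cells and 47.0 CPM in megakaryocyte-like cells, where neighbours did not differ beyond their intervals. Granule gene-positive cells, which carry Elane, Mpo and related primary granule transcripts, kept 25.3 CPM, against 2.62 CPM in erythroid-like cells.

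Mllt3 and Erg had the smallest ratios over all other kept cells, 5.63 (5.28 to 6.00) and 5.35 (4.88 to 5.85), and each was high in another class. Mllt3 was at 206 CPM in the Procr gate and at 84.5 CPM (81.6 to 87.5) in erythroid-like cells, which held 3160 of its 6505 UMIs. The erythroid-like level was 0.410 times that of the Procr gate (0.383 to 0.439), while the other 5 genes lay between 0.00305 and 0.0234 times there. Counted per cell the order turned: erythroid-like cells, which had a median of 32163.5 UMIs, held 2.56 Mllt3 UMIs per cell and Procr gate cells 2.03, a ratio of 1.26. Neutrophil-like cells were at 4.04 CPM and monocyte-like cells at 5.92 CPM.

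Erg, the ETS gene, was at 104 CPM in the Procr gate (96.1 to 113) and at 81.7 CPM in the Flt3 gate (72.0 to 92.3). Ungated cells (75.9 CPM), lymphoid-like cells (69.6 CPM) and the Gata1 gate (56.4 CPM) came next in overlapping steps. The 17 B lineage-like cells, with 15 Erg UMIs, were at 73.2 CPM (41.0 to 121). Mecom, Prdm16 and Nkx2-3 had 0 UMIs in those cells, where 3 UMIs would be 14.6 CPM. Granule gene-positive cells were at 27.4 CPM, monocyte-like cells at 13.6 CPM, and erythroid-like cells were lowest of the large classes at 2.01 CPM.

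Ungated cells, which have neither Procr, Flt3 nor Gata1, were between 0.448 times (Mllt3) and 0.728 times (Erg) the Procr gate. A missing Procr UMI does not show that a cell lacked Procr, so these cells were split by the 8 stem markers. In the 307 ungated cells with 3 or more UMIs of those markers Hlf was at 269 CPM and Nkx2-3 at 87.8 CPM, and in the 128 cells with none they were at 112 and 12.7 CPM. The ratio between these groups was 6.93 for Nkx2-3 (4.26 to 12.0), 6.23 for Prdm16 (2.76 to 17.4), 3.69 for Mllt3, 2.71 for Mecom, 2.40 for Hlf and 1.60 for Erg (1.23 to 2.11).

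The same reading over all cells without a lineage gate, with Procr left out of the score, ranked every gene with the stem markers. From the 326 cells with none of the 8 markers to the 154 cells with at least 8 marker UMIs per 10000, Prdm16 went from 3.57 to 50.8 CPM, Nkx2-3 from 9.17 to 151 CPM, Mllt3 from 27.3 to 296 CPM, Mecom from 24.5 to 192 CPM and Hlf from 111 to 556 CPM. Erg spanned the least, from 55.8 to 120 CPM. Procr itself went from 6.12 to 163 CPM over these bands.

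Shares of cells gave the same picture at equal depth. With each cell thinned to 5000 UMIs, which left 559 Procr gate cells, a Hlf UMI was seen in 83.4% of them (80.0 to 86.4), a Mllt3 UMI in 57.2%, a Mecom UMI in 52.6%, a Nkx2-3 UMI in 45.8%, an Erg UMI in 41.7% and a Prdm16 UMI in 19.9%. Without thinning these shares were 92.9%, 71.4%, 73.5%, 61.7%, 59.4% and 28.4%. In thinned neutrophil-like cells, which should lack stem cell regulators and had a median of 19692 UMIs before thinning, the shares were 2.42% for Hlf, 2.66% for Mllt3, 0.969% for Mecom, 0.484% for Nkx2-3, 4.12% for Erg and 0.242% for Prdm16. The Mllt3 share in thinned erythroid-like cells was 32.1% (29.5 to 34.8), more than 10 times its share in neutrophil-like cells.

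**Figure D2:**
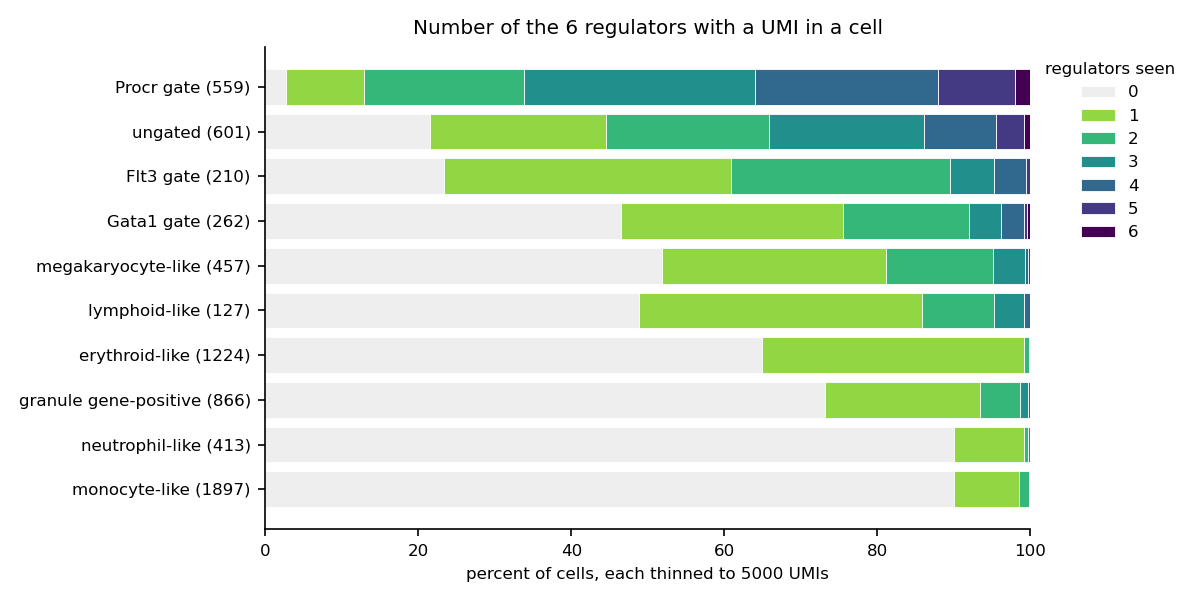
Percent of cells, thinned to 5000 UMIs each, in which 0 to 6 of the genes had a UMI, by class with cell numbers in brackets. Procr gate cells most often showed 3 (30.2%), whereas 51.9% of megakaryocyte-like and 90.1% of neutrophil-like cells showed 0.

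Several of the genes were usually seen in the same Procr gate cell. At 5000 UMIs, 3 or more of the 6 were seen in 66.2% of these cells (62.1 to 70.1) and all 6 in 11 of 559, while only 2.68% had none. The share with 3 or more was 34.1% in ungated cells, 10.5% in the Flt3 gate, 8.02% in the Gata1 gate, 4.81% in megakaryocyte-like cells and 0.158% in monocyte-like cells. In erythroid-like cells 34.3% showed exactly 1 gene and 0.735% showed 2 or more.

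Within the Procr gate the genes varied together only weakly. Across the 559 thinned cells, Pearson's r between pairs ran from 0.00441 (Mecom with Mllt3) to 0.135 (Hlf with Mllt3), a description over sparse counts of 1 library. Cells with a Mllt3 UMI had 1.82 times the Nkx2-3 level of cells without (1.504 to 2.21) and 1.76 times the Prdm16 level (1.24 to 2.54), with median depths of 8388 and 8670.5 UMIs. Cells with an Erg UMI did not differ from cells without one beyond counting error in Mecom (0.935 times, 0.816 to 1.07), Prdm16, Hlf or Mllt3.

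Retention in megakaryocyte-like cells was low for all 6. These cells, gated on Pf4, Itga2b, Gp9, Gp1bb, Gp6, Treml1 and Cavin2, had 0.5 times the Procr gate level or less for 6 of 6 genes, where 12.0% of 10672 genes were that low. The ratios ran from 0.0892 to 0.306 with a median of 0.228, and the median over all those genes was 0.970. Nkx2-3 (0.0892 times, 0.0708 to 0.111) and Hlf (0.0985 times, 0.0883 to 0.110) were lowest and overlapped. Mllt3 (0.225 times), Mecom (0.230 times) and Prdm16 (0.230 times) lay together, and Erg was highest at 0.306 times (0.263 to 0.354). Counted per cell, Erg was at 0.556 times and the count at 0.5 times or less was 5 of 6.

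All 6 genes were still higher in megakaryocyte-like than in neutrophil-like cells. Relative to neutrophil-like cells, Mecom was 49.99 times as high (22.7 to 137) against 6 neutrophil-like UMIs, Mllt3 11.5 times (8.05 to 16.9), Hlf 6.73 times (5.08 to 9.05) and Erg 3.83 times (2.92 to 5.07). Nkx2-3 and Prdm16 had 3 UMIs each in neutrophil-like cells, and their ratios were 29.8 (9.87 to 147) and 22.8 (7.5 to 113). Other myeloid classes came closer. Erg was at 31.9 CPM in megakaryocyte-like and 27.4 CPM in granule gene-positive cells but at 0.571 and 0.619 UMIs per cell. The intervals of Nkx2-3 in megakaryocyte-like (11.0 CPM) and dendritic-like cells (8.56 CPM) overlapped. However, the dendritic-like Nkx2-3 UMIs came from 9 of 196 cells (4.59%), and the megakaryocyte-like ones from 65 of 459 (14.2%). Relative to erythroid-like cells, the 5 genes other than Mllt3 were all higher in megakaryocyte-like cells, and Mllt3 was 1.82 times higher in the erythroid-like cells (1.63 to 2.03).

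**Figure D3:**
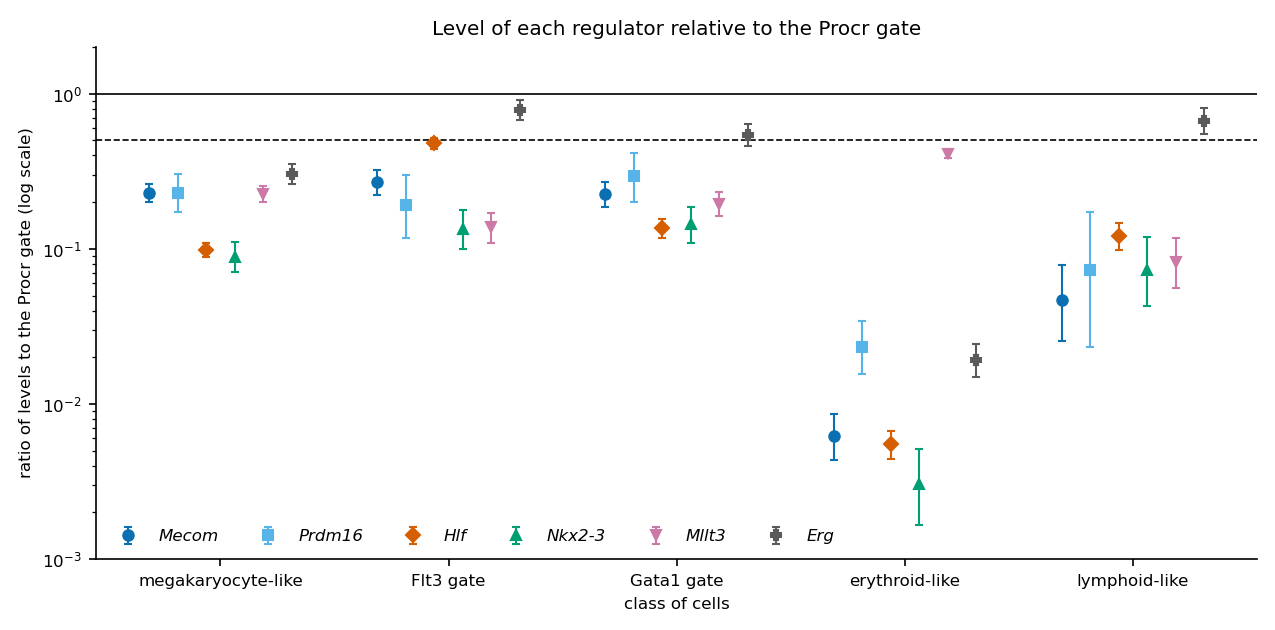
Ratio of each gene's level in 5 classes to its level in the Procr gate, on a log axis; bars are exact 95% intervals for counting error, the solid line marks 1 and the dashed line 0.5. All 6 genes lie below the dashed line in megakaryocyte-like cells, Erg lies above it in the Flt3 gate (0.783), Gata1 gate (0.540) and lymphoid-like cells (0.667), and Mllt3 alone stays near it in erythroid-like cells (0.410).

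The megakaryocyte-like class held a gradient. Cells with no Procr UMI and no other lineage gate were placed in 6 bands by megakaryocyte marker UMIs per 10000, from under 2 (462 cells) to over 100 (134 cells). Along these bands Vwf, the gene of the platelet adhesion protein von Willebrand factor, went from 9.44 to 393 CPM. Here and for the later marker scores, bands below the gate pool Flt3 gate, Gata1 gate and ungated cells. Steps up to the gate therefore also mix classes. Hlf went down at each step, from 217 to 202, 96.0, 56.6, 42.5 and 27.5 CPM. Mecom was instead highest in bands 2 and 3, at 46.5, 73.2, 70.7, 47.0, 40.0 and 21.2 CPM. Mllt3 had a like course, at 41.3, 85.4, 71.0, 68.3, 41.8 and 26.1 CPM. Its level at 20 to 50 marker UMIs, already inside the gate, was thus above that of cells with almost no marker. Nkx2-3 and Prdm16 also rose from band 1 to band 2, from 28.9 to 50.4 CPM and from 8.39 to 22.8 CPM.

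Nkx2-3 spanned the widest fold within the gate, from 20.5 CPM at 20 to 50 marker UMIs to 7.51 and then 2.82 CPM (1.22 to 5.56, 8 UMIs). Prdm16 went from 14.8 to 6.44 and 3.53 CPM over those bands and Erg from 49.2 to 30.03 and 16.2 CPM. The stem marker Kit, which also served for the sort, went from 176 to 65.6 CPM over the same 3 bands. The 13 megakaryocyte-like cells with a Procr UMI had 5.01 times the Hlf level of the other 446 (3.73 to 6.63) and 5.12 times the Nkx2-3 level (2.67 to 9.12). For the remaining genes this ratio was 2.17 (Erg) to 3.14 (Prdm16), and the median depths of the groups were 22709 and 17142.5 UMIs.

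**Figure D4:**
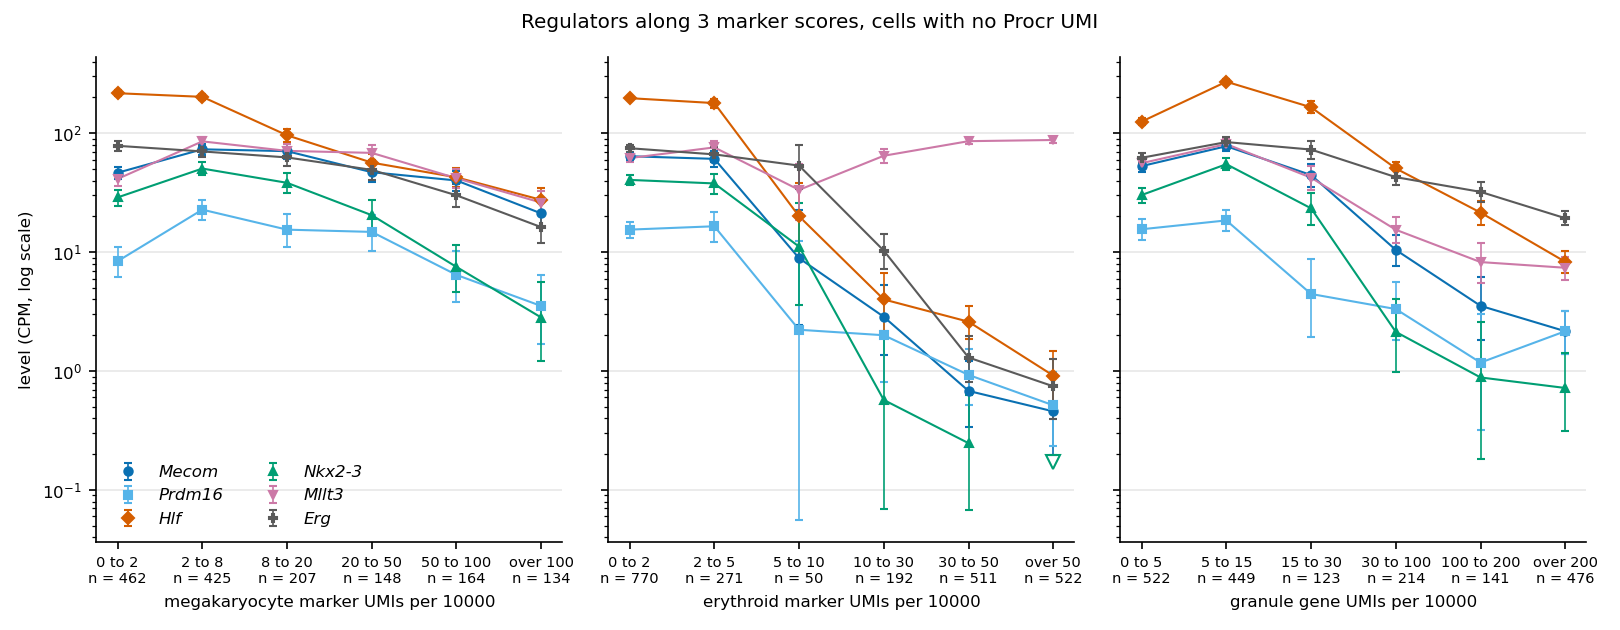
Level of each gene (CPM, log axis) in cells without a Procr UMI, in bands of megakaryocyte, erythroid and granule gene UMIs per 10000 UMIs of the cell; bars are exact 95% Poisson intervals, n is cells per band, and the open triangle marks the level that 3 UMIs would give where none was seen. Mllt3 is at 87.7 CPM in the last erythroid band while the other 5 end below 1 CPM there, and Erg is at 19.3 CPM in the last granule band.

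Along the erythroid markers, Mllt3 left the other genes. The bands ran from under 2 to over 50 marker UMIs per 10000, and Mllt3 was at 61.8, 76.0, 33.4, 64.6, 85.7 and 87.7 CPM in them. The third band, at 5 to 10 marker UMIs just below the gate, held 50 cells and 15 Mllt3 UMIs (18.7 to 55.1 CPM), so the dip rests on few counts. Over the same bands Hlf went from 197 to 0.917 CPM, Erg from 74.8 to 0.745 CPM, Mecom from 64.0 to 0.458 CPM and Prdm16 from 15.5 to 0.516 CPM. Nkx2-3 went from 40.5 CPM to 0 UMIs in 522 cells, where 3 UMIs would be 0.172 CPM. Erg was still at 53.4 CPM in the third band (34.2 to 79.5), where Hlf was at 20.0 CPM and Mecom at 8.90 CPM.

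In the Flt3 gate the genes split. Here 5 of 6 were at 0.5 times the Procr gate level or less, where 8.14% of 10072 genes were, with a median of 0.230 against 0.964 for all those genes. Nkx2-3 (0.135 times, 0.0999 to 0.179), Mllt3 (0.138 times, 0.110 to 0.171), Prdm16 (0.192 times) and Mecom (0.269 times, 0.223 to 0.323) were low. Hlf was at 0.480 times, with an interval of 0.441 to 0.521 that takes in the 0.5 line, and Erg was at 0.783 times (0.673 to 0.908). Counted per cell, Erg was 1.18 times higher in the Flt3 gate, whose median depth was 13675 UMIs, and Hlf was at 0.725 times.

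The contrast with megakaryocyte-like cells was of opposite sign for different members. Hlf was 4.87 times higher in the Flt3 gate than in megakaryocyte-like cells (4.30 to 5.53), Erg 2.56 times (2.15 to 3.06) and Nkx2-3 1.51 times (1.06 to 2.15). Mllt3 was lower in the Flt3 gate, at 0.611 times (0.479 to 0.771). Mecom at 1.17 times (0.95 to 1.44) and Prdm16 at 0.836 times (0.492 to 1.37) did not differ beyond counting error.

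Dntt, the terminal transferase gene of early lymphoid cells, divided the Flt3 gate further. The 66 Flt3 gate cells with a Dntt UMI had 132 CPM of Hlf and the 145 without had 292 CPM, a ratio of 0.450 (0.376 to 0.537). Mecom was at 0.456 times (0.295 to 0.687) and Nkx2-3 at 0.410 times (0.190 to 0.813) across this split. Erg was at 75.9 and 85.5 CPM, a ratio of 0.888 whose interval (0.681 to 1.15) spans 1. From the Flt3 gate to lymphoid-like cells Mecom was 5.79 times lower (3.33 to 10.9 as Flt3 gate over lymphoid-like) and Hlf 3.99 times lower, while Erg differed by 1.17 times (0.947 to 1.46).

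The granule gene bands, built on Elane, Prtn3, Ctsg, Ms4a3 and Mpo, gave a slower course for Erg. From the second band, at 5 to 15 granule UMIs per 10000, to the last, at over 200, Erg went from 84.2 to 19.3 CPM, Hlf from 271 to 8.29 CPM, Mecom from 77.7 to 2.16 CPM and Nkx2-3 from 54.9 to 0.721 CPM. Relative to the Procr gate, granule gene-positive cells had 0.262 times the Erg level (0.233 to 0.295) and 0.0166 times that of Nkx2-3 (0.0117 to 0.0228). The Gata1 gate had Erg at 0.540 times (0.458 to 0.635), and the other 5 genes lay from 0.136 (Hlf) to 0.293 (Prdm16) times.

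The Procr gate itself was not uniform. Cells with more Procr UMIs had more Nkx2-3, at 103, 145 and 160 CPM for 1, 2 and 3 or more Procr UMIs, and more Mllt3, at 177, 235 and 267 CPM. The ratio of the last to the first was 1.54 for Nkx2-3 (1.27 to 1.87), 1.51 for Mllt3 (1.30 to 1.75) and 1.495 for Prdm16 (1.03 to 2.14). It was 1.23 for Mecom (1.04 to 1.46) and 1.15 for Hlf (1.04 to 1.27), and Erg, at 1.03 (0.819 to 1.29), did not follow Procr.

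Vwf, which marks platelet-biased stem cells, was seen in 248 of the 567 Procr gate cells. These cells had 1.68 times the Prdm16 level of the other 319 (1.26 to 2.24), 1.65 times the Mllt3 level (1.47 to 1.86) and 1.30 times the Nkx2-3 level (1.11 to 1.51). Mecom (1.12 times), Erg (1.08 times) and Hlf (0.95 times, 0.879 to 1.03) had intervals that span 1. The intervals of Nkx2-3 overlapped those of Mecom and Erg, so no clear division of the genes by Vwf was seen.

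**Figure D5:**
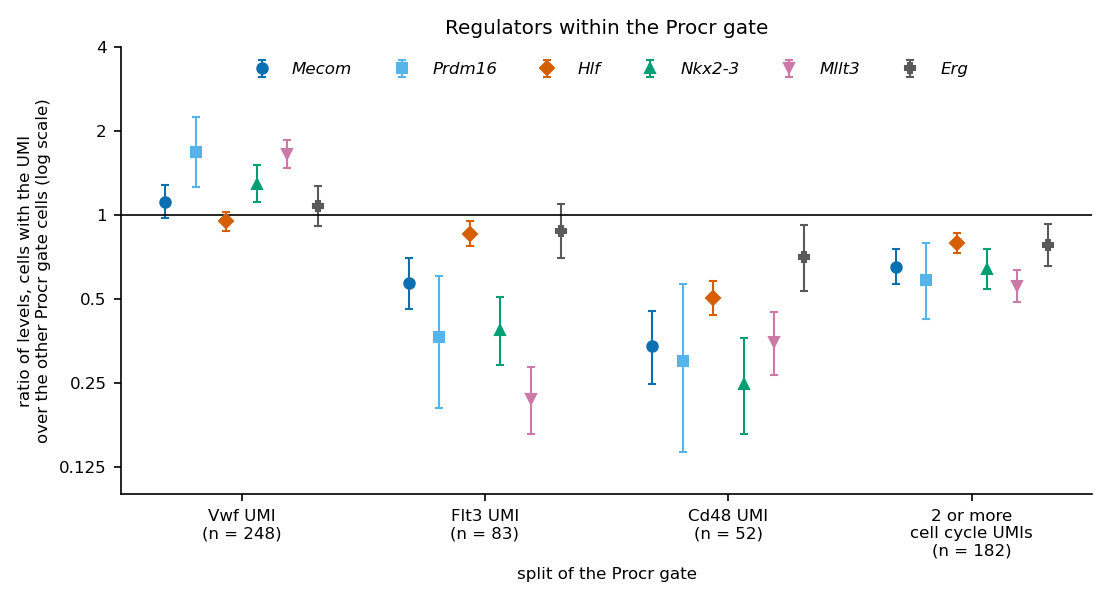
Ratio of each gene's level between Procr gate cells with the named UMI and the other Procr gate cells, on a log axis; bars are exact 95% intervals for counting error and n counts cells with the UMI. Mllt3 is among the highest with Vwf (1.65) and the lowest with Flt3 (0.219), and all 6 genes lie below 1 with Cd48 and with cell cycle UMIs.

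Flt3 UMIs, present in 83 Procr gate cells, went with lower Mllt3 (0.219 times, 0.164 to 0.287), Prdm16 (0.364 times), Nkx2-3 (0.389 times) and Mecom (0.571 times, 0.461 to 0.700). Hlf was at 0.858 times (0.773 to 0.951) and Erg at 0.878 times (0.700 to 1.09). Cd48, a surface gene of multipotent and committed progenitors, was seen in 52 cells, and all 6 genes were lower there, from 0.249 times for Nkx2-3 (0.164 to 0.363) to 0.709 times for Erg (0.537 to 0.922). The 182 cells with at least 2 UMIs of 8 cell cycle genes were lower too, from 0.557 times for Mllt3 (0.488 to 0.634) to 0.796 times for Hlf (0.734 to 0.862). Cells with these UMIs were also deeper, with median depths of 14165 (Cd48), 10934 (Flt3) and 10300 UMIs (cell cycle) against 8087 to 8359.5 in the cells without, and the part of depth in these ratios was not tested.

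Other stem cell regulators were read from a list of 27. Relative to all other kept cells, 22 of 27 were 2-fold or more higher in the Procr gate, against 24.4% of all genes. The median ratio of the 27 was 3.58, below all 6 of the genes described here. The highest were Ndn (15.5), a MAGE family gene, Hoxb5 (13.04), a homeobox gene, and Tcf15 (11.7), a bHLH gene, and the lowest were Runx1 (1.36), Gfi1b (0.914) and Gfi1 (0.704). In megakaryocyte-like cells 16 of 27 were at 0.5 times or less (median 0.472), against 12.0% of all genes. Gfi1 (0.0215 times, from 0.243 CPM), Rora (0.120 times) and Hoxa5 (0.146 times) were lowest. Fli1 (1.99 times) and Gfi1b (1.76 times) were among those higher there than in the Procr gate, which none of the 6 was. In the Flt3 gate 11 of 27 were at 0.5 times or less (median 0.594), against 8.14% of all genes. Tcf15 (0.103 times), Ndn (0.168 times) and Hoxb5 (0.169 times) were lowest there, and Ikzf2 (1.34 times), Runx1 (1.01 times) and Gfi1 (0.989 times) highest.

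Relatives and partners of the 6 genes are read against the same background, 24.4% of all genes 2-fold or more higher in the Procr gate. Of 11 other ETS genes, 5 were that much higher, with a median of 1.65. Ets2 (2.96), Etv6 (2.57) and Elk3 (2.51) were highest, and Gabpa (1.13) and Spi1 (0.481) low. Spib had 0 UMIs in the Procr gate and 69 in all other kept cells. Its ratio of 0, with an interval up to 1.44, is included in that median. Fli1, the ETS gene closest to Erg, was at 1.99 times the Procr gate level in megakaryocyte-like cells (1.84 to 2.15) and 0.594 times in the Flt3 gate (0.519 to 0.678), the reverse order of Erg. Of 6 measured PRDM genes, 2 were 2-fold or more higher, among them Prdm11 (2.62), and Prdm2 was at 1.58, against 16.5 and 11.3 for Mecom and Prdm16, and 2 of 6 is near the background share. Prdm15 (1.29), Prdm10 (1.07) and Prdm4 (1.05) were lowest.

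Of the 3 bZIP relatives of Hlf, Tef (2.80) and Dbp (2.24), the other PAR bZIP genes, were 2-fold or more higher in the Procr gate, and Nfil3 (0.344), which binds the same sites as a repressor, was lower. In the Flt3 gate Dbp (1.003 times) and Tef (0.802 times) had intervals that span 1. Of 12 genes of the AF9 complexes, 3 were 2-fold or more higher in the Procr gate, a share like that of all genes, namely Mllt6 (3.36), Kmt2a (2.82), the MLL gene, and Aff4 (2.74), and Cdk9 (0.924), Dot1l (0.815) and Ell2 (0.733) were lowest. None of those 12 was at 0.5 times or less in megakaryocyte-like cells or in the Flt3 gate, counts near the 12.0% and 8.14% of all genes that were.

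The 4 platelet-bias genes were all 2-fold or more higher in the Procr gate, where 24.4% of all genes were, among them Selp (9.79), Clu (5.02) and Vwf (3.51). In the Flt3 gate all 4 were at 0.5 times or less, where 8.14% of all genes were, with Selp at 0.208 times, Vwf at 0.110 times and Clu at 0.103 times. In megakaryocyte-like cells the 4 genes ran from 0.706 times for Selp to 3.42 times for Vwf. The 8 cell cycle genes had a median ratio of 0.341 in the Procr gate over all other kept cells, against 1.21 for all tested genes. Cenpf (0.546), Top2a (0.370) and Ccnb1 (0.351) were highest, and Ube2c (0.325), Mki67 (0.315) and Birc5 (0.233) lowest. In megakaryocyte-like cells the 8 ran from 2.02 times the Procr gate level for Ccnb1 to 2.90 times for Mki67. Their median was 2.49, against 0.970 for all tested genes.

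Across 15 classes, the genes whose levels followed each member most closely were named by Pearson's r of log2(level + 5 CPM), among genes with at least 500 UMIs. The classes share 1 library and differ in depth, so r is a description. The smallest had 7, 17 and 30 cells, where a few UMIs can move r. Prdm16 and Nkx2-3 were each among the other's 5 (r = 0.968), and Nupr1, a stress-response regulator, led both lists (r = 0.973 and 0.970). Prdm16 also had Trim47, Tcf15 and Hoxb2, and Nkx2-3 had Cpne8, Samd12 and Vldlr. For Mecom the 5 included Ccdc112 (r = 0.989), F11r, Crispld1 and Hdgfl3, and Hlf shared Crispld1 and Hdgfl3 with it beside A630072M18Rik (r = 0.956), Vldlr and Gcnt2. Mllt3 had lower values and other genes, with Ryk (r = 0.927), Cd99l2, Arhgef12, Selenow and Nae1 (r = 0.894). Erg shared no gene with another member: Anks1 (r = 0.964), 1500009L16Rik, Bbx, Abhd14b and Slc25a27 (r = 0.94).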

How the data were processed

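Per the file headers, the methods and the labels, the authors deposited raw counts of UMIs per gene and barcode from 10x Chromium 3′ v3.1 libraries, made with Cell Ranger 6.0.2 on mm10 (also named in the submitters' processing notes), with barcodes called as cells. The label text on RNA extraction describes a bulk kit, which the single-cell files contradict. The study's cell filter was applied (more than 1000 but fewer than 50000 UMIs; genes between 1000 and 6500; mitochondrial share below 7%). Lineage gates needed 2 or more markers (lymphoid and T or NK gates 1) and 2 to 30 summed marker UMIs per 10000, cuts chosen after the markers' distributions had been seen, and Nkg7 was dropped from the T or NK gate because it was seen broadly. The cells within 1.5 times of a cut numbered 162 for the megakaryocyte and 112 for the erythroid gate. Scrublet, run from scanpy 1.11.5, marked likely doublets (expected 6%, random seed 1; 268 calls, 3.51%) and were removed only as an alternative.

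Levels are summed UMIs of a class per 1000000 with exact Poisson intervals, ratios have conditional binomial intervals, and shares Clopper-Pearson intervals (Python 3.11.15, scipy 1.17.1, numpy 2.4.6; figures with matplotlib 3.10.9). Thinning to 5000 UMIs left out 99 of 7645 cells. A level of 0 is given with the level that 3 UMIs would have. The ratio step was tested on simulated counts. The members and lists were chosen with earlier results of these data known. Besides the 6 members, the 3 highest and 3 lowest genes of each list by ratio to all other kept cells were named, for the stem cell regulators in all 3 comparisons, and the 5 most alike genes per member. A few genes that this rule names are not reported here. The alternatives covered doublets, the cell filter, the gates, the denominator and the averaging.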

Additional observations from a re-analysis of the deposited data

Results flagged for a closer look

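The 1172 barcodes that the cell filter removed lie outside the comparisons, and all 6 genes had more than 3 UMIs there. Their levels were 7.95 CPM for Mecom, 2.76 CPM for Prdm16, 19.7 CPM for Hlf, 5.51 CPM for Nkx2-3, 72.0 CPM for Mllt3 and 10.4 CPM for Erg. Of these barcodes 25 had a Procr UMI, and they held 114 of the 307 Hlf UMIs and 68 of the 1123 Mllt3 UMIs.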

How the results depend on the processing

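The counts of members past the fold stayed within 1.5 times under all 34 alternative values, from 4 to 6 of 6. The ratios of single genes moved beyond their counting interval in 62 of 204 cases and changed direction in 1 more. There Erg in the Flt3 gate was at 1.18 times the Procr gate when counted per cell. Over all other kept cells, the median ratio of 13.9 was 12.3 with the stricter cell filter, 6.61 per cell, 10.1 as the mean of each cell's level, and 26.8 against lineage-gated cells alone, a reference added after seeing the data. In megakaryocyte-like cells the median of 0.228 was 0.276 with the stricter filter, 0.186 with at least 2 Procr UMIs, 0.191 without Cd48 or Flt3 UMIs in the Procr gate, 0.178 with lineage gates at 2 times the marker level and 0.414 per cell. In the Flt3 gate the median of 0.230 was 0.166 with those stricter lineage gates and 0.348 per cell, and the count of 5 was 4 per cell, by the mean of each cell's level and without Dntt UMIs. Why these moved was not tested. With genes of at least 10 UMIs the background shares were 28.2%, 17.5% and 13.7%. Per-cell values follow depth, which was lowest in the Procr gate. A pseudocount of 1 kept 3 to 4 of the 5 most alike genes. No paired analysis was possible because there is 1 library. With 1 library, spread between mice was not measured, and genes with few UMIs, such as Prdm16, are the least precise.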
